A study of Drosophila melanogaster with 9 samples.

Results

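Transcripts of 10 genes of the mitochondrial protein import machinery were followed in the indirect flight muscle of Drosophila melanogaster. They were Tom40, Tom20, Tom7, Tim23, Tim17b, Tim17b1, Tim9a, Tim13, Roe1 and blp. They were chosen by gene symbol in the array's annotation. These genes and the lists read further on were picked with earlier results of these data known. Counts set beside shares of all probe sets are therefore descriptions only. Each of the 10 genes was measured by 1 probe set, a group of short probes for 1 transcript. They were thus 10 of the 11982 genes named on the array and 10 of the 18769 probe sets tested.

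The muscle came from adult males 1 to 2 days old of 3 genotypes, with 3 arrays each, described by the study as independent biological replicates. Act88FKM88 flies lack the actin that Act88F supplies to flight muscle thin filaments. Mhc7 flies lack flight muscle myosin heavy chain, the motor of the thick filaments. Canton-S is a wild-type laboratory strain. The labels name no other allele and give no genetic background for the mutants, so the mutation and the strain background cannot be told apart. Values are log2 RMA values, a per-array summary of probe brightness after background correction and normalization, and replicate numbers only name arrays.

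Nearly all mitochondrial proteins are made in the cytosol and must be imported. The TOM complex carries precursors across the outer membrane, the TIM23 complex carries those with a targeting sequence into or across the inner membrane, and small Tim chaperones guide hydrophobic precursors through the space between the membranes. A motor built around the mitochondrial Hsp70 pulls precursors into the matrix, where proteases remove the targeting sequence. Flight muscle is packed with mitochondria, which supply the ATP for flight.

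A gene was called when its Benjamini-Hochberg adjusted p in limma was under 0.1 and the difference reached 2-fold, limits taken from the study's stated cut-offs. In Mhc7 muscle 3 of the 10 genes rose relative to Canton-S, namely Tim23, Tim17b and Tim9a, of which 1, Tim9a, was called after quantile normalization was repeated. After that step Tim23 and Tim17b still met the p limit but not the 2-fold minimum. In Act88FKM88 muscle 1 rose, Tim9a. Of all probe sets 2.40% were called higher in Mhc7 and 1.48% in Act88FKM88. Among probe sets with a mean of at least 5 over the 9 arrays these shares were 16.0% and 7.76%. None of the 10 fell in either mutant, and none was called between the mutants. Of all 18769 probe sets, 62 were called lower in Act88FKM88, 73 in Mhc7 and 336 in either direction between the mutants. The 2 comparisons with Canton-S share its 3 arrays, so their results are not independent of each other. In whole muscle, fewer cells of a type and less RNA per cell cannot be told apart.

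The upper part of the deposited values differed between the genotypes. The 95th percentile of all probe sets was 7.57 to 7.96 on the Act88FKM88 arrays and 7.77 to 8.15 on the Mhc7 arrays, against 7.26 to 7.47 on the Canton-S arrays. Array medians lay between 3.05 and 3.12. Among the 2590 probe sets with a mean of at least 5, a limit chosen after seeing the data, the median difference from Canton-S was 0.32 in Act88FKM88 and 0.42 in Mhc7, whereas over all probe sets it was -0.03 and -0.01. Of the 10 import genes, 8 had a mean of at least 5. An effect of scaling and a broad rise of transcripts in the mutants cannot be told apart here. Repeated quantile normalization gives every array the same distribution and so would remove either.

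Act88F, the gene mutated in 1 genotype, had 11.57, 11.79 and 11.03 in Act88FKM88, against 14.10, 14.32 and 14.36 in Canton-S, and fell by 2.80 (SE 0.17, limma adjusted p = 8.25e-05). Mhc was not analysed here, because no probe set names it alone. All 10 measured flight muscle markers had genotype means of at least 5 in each genotype, while no gene of the neuron, gut or testis lists (the last shares tomboy20 and tomboy40 with the import genes read further on) reached 5 in any genotype, and of 9 hemocyte genes only Hml did, in Act88FKM88. Of 11 fat body markers 5 reached it in each genotype, with array means of the list from 4.81 to 5.01 in Act88FKM88 and 4.78 to 5.49 in Mhc7, against 4.27 to 5.43 in Canton-S. The mean of the 9 cuticle markers was 4.73 to 5.25 in Act88FKM88 and 4.42 to 5.40 in Mhc7, against 5.36 to 5.95 in Canton-S, with 1 Mhc7 array inside the Canton-S range. Of these 9, 2 were called lower in Act88FKM88 and 3 in Mhc7, with median differences of -0.06 and -0.71 over the list. In each mutant 3 had a difference above 0, the highest being 0.56 in Act88FKM88 and 1.47 in Mhc7. The largest called falls were those of Cpr64Aa and Cpr76Bd, at -2.42 and -2.22 in Act88FKM88 and -2.80 and -2.17 in Mhc7. Of the tracheal markers 2 of 5 reached 5 in each genotype. Of the 5 jump and tubular muscle markers, 4 reached it in each genotype and 0 passed in either mutant (limma). Their median difference from Canton-S was 0.96 in Act88FKM88 and 0.07 in Mhc7. Their array means were 8.51, 9.59 and 7.58 in Act88FKM88, 7.33, 7.67 and 7.97 in Mhc7, and 7.04, 8.25 and 8.37 in Canton-S, so the highest array was Act88FKM88 replicate 2, which was also the highest of its genotype for the import genes. The part of these other tissues in the results was not tested.

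In the outer membrane, Tom40 forms the channel of the TOM complex. Its values were 7.48, 8.16 and 7.09 in Act88FKM88, 7.34, 9.10 and 8.49 in Mhc7, and 7.15, 6.61 and 7.12 in Canton-S. All Mhc7 arrays were above all Canton-S arrays, but Mhc7 replicate 1 was only just above them, and the Act88FKM88 and Canton-S ranges overlapped. The Mhc7 difference was 1.35 (SE 0.42, 95% interval 0.40 to 2.30), the third largest of the 10, and was not called (limma adjusted p = 0.126). It was called in SAM, the test the study names, and without Mhc7 replicate 1 (1.84, limma adjusted p = 0.0166). In Act88FKM88 the difference was 0.62 (SE 0.42, limma adjusted p = 0.569).

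Tom20 is the receptor that recognises targeting sequences. Its values were 10.08, 10.35 and 9.88 in Act88FKM88, 10.12, 10.47 and 10.47 in Mhc7, and 9.34, 9.70 and 9.65 in Canton-S. Every array of either mutant lay above every Canton-S array. The difference was 0.54 (SE 0.15, limma adjusted p = 0.115) in Act88FKM88 and 0.79 (SE 0.15, limma adjusted p = 0.0195) in Mhc7, where it met the p limit at 1.73-fold but not the 2-fold minimum. After quantile normalization the differences were 0.084 and 0.081, and the Mhc7 difference no longer met the p limit (limma adjusted p = 0.686).

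Tom7 is a small subunit that modulates the assembly of the complex. It had 9.94, 10.28 and 9.92 in Act88FKM88, 10.22, 10.25 and 10.20 in Mhc7, and 9.39, 9.83 and 9.96 in Canton-S. The Mhc7 arrays were nearly equal and all above Canton-S, whereas the Act88FKM88 and Canton-S ranges overlapped. The differences were 0.32 in Act88FKM88 (SE 0.15, limma adjusted p = 0.383) and 0.50 in Mhc7 (SE 0.15, limma adjusted p = 0.122). After repeated quantile normalization both were below 0, at -0.16 and -0.26.

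In the inner membrane, Tim23 forms the core of the presequence translocase. It had 10.79, 10.90 and 10.59 in Act88FKM88, 11.29, 11.48 and 11.53 in Mhc7, and 9.58, 10.06 and 10.21 in Canton-S. The 3 genotypes did not overlap at all, with Mhc7 highest and Canton-S lowest. In Mhc7 the difference was 1.48 (SE 0.16, 95% interval 1.12 to 1.85), or 2.79-fold (limma adjusted p = 0.0015), the smallest adjusted p of the 10 genes.

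This call was kept in 9 of 9 fits that left out 1 array. It lost the 2-fold minimum after repeated quantile normalization, at 0.89, and after removal of each array's intensity trend, at 0.83. The p limit was met under both (limma adjusted p = 5.59e-04 and 3.84e-04). After centring on ribosomal protein genes Tim23 was still called in Mhc7, at 1.05 (limma adjusted p = 0.0033). In Act88FKM88 the Tim23 difference was 0.81 (SE 0.16, 95% interval 0.44 to 1.17, limma adjusted p = 0.0312), or 1.75-fold, under the 2-fold minimum. Act88FKM88 lay below Mhc7 by a difference of -0.67 (SE 0.16, 95% interval -1.04 to -0.31, limma adjusted p = 0.0721), again under the 2-fold minimum.

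Tim17b encodes Tim17, the partner of Tim23 in the translocase. It had 10.85, 11.03 and 10.50 in Act88FKM88, 11.23, 11.53 and 11.45 in Mhc7, and 9.86, 10.41 and 10.50 in Canton-S. All Mhc7 arrays were above all others, and Act88FKM88 replicate 3 was level with Canton-S replicate 3. The difference was 0.54 in Act88FKM88 (SE 0.19, limma adjusted p = 0.220) and 1.15 in Mhc7 (SE 0.19, 95% interval 0.72 to 1.57, limma adjusted p = 0.0089), or 2.21-fold.

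The Tim17b call in Mhc7 was lost without Canton-S replicate 1, where the difference was 0.95. It was also lost after quantile normalization, at 0.55, after removal of the intensity trend, at 0.50, and after centring on ribosomal protein genes, at 0.72. Under these scalings the differences met the p limit but not the 2-fold minimum, at limma adjusted p = 0.0111, 0.0099 and 0.0795. In Act88FKM88 the difference was -0.02 after quantile normalization. Whether the probes also bind transcripts of the other Tim17 copies was not tested.

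Tim17b1, another copy of Tim17, had 3.28, 2.91 and 3.03 in Act88FKM88, 3.54, 3.06 and 3.13 in Mhc7, and 3.22, 3.25 and 3.12 in Canton-S. The 3 ranges overlapped, and the values lay near the array medians. The differences were -0.12 in Act88FKM88 (limma adjusted p = 0.769) and 0.05 in Mhc7 (limma adjusted p = 0.919). No detection calls were used here, so whether the transcript was present was not tested.

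Among the small Tims of the intermembrane space, which act as chaperones for hydrophobic precursors, Tim9a had 6.89, 7.66 and 6.52 in Act88FKM88, 6.11, 7.53 and 7.68 in Mhc7, and 5.22, 5.04 and 5.89 in Canton-S. Every mutant array was above every Canton-S array, and Mhc7 replicate 1 was the lowest of the mutant arrays. Tim9a rose by 1.64 in Act88FKM88 (SE 0.44, 95% interval 0.65 to 2.63, limma adjusted p = 0.0939), or 3.12-fold. It rose by 1.72 in Mhc7 (SE 0.44, 95% interval 0.73 to 2.72, limma adjusted p = 0.0628), or 3.30-fold.

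Tim9a was the only import gene called in both mutants, and the only one called in Mhc7 after quantile normalization (1.35) or removal of the intensity trend (1.30). Among the 4 calls, those of Tim9a were lost most often when single arrays were left out. In Act88FKM88 the call remained in 3 of 9 fits that left out 1 array, and was lost without Canton-S 1 or 2, Act88FKM88 1 or 2, or Mhc7 2 or 3, with limma adjusted p up to 0.268. In Mhc7 it remained in 4 of 9, and was lost without Canton-S 1 or 2, Act88FKM88 1, or Mhc7 2 or 3, with limma adjusted p up to 0.213. Arrays of the other mutant do not enter a difference from Canton-S. They enter only the shared estimate of the spread and so the adjusted p. Without Mhc7 2 or 3 the Act88FKM88 difference was unchanged at 1.64. The difference itself stayed between 1.32 and 1.89 in Act88FKM88 when single arrays were left out.

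Tim13, a further small Tim, had 2.58, 2.61 and 2.79 in Act88FKM88, 2.61, 2.55 and 2.52 in Mhc7, and 2.41, 2.64 and 2.53 in Canton-S. These values were below every array's median, and the genotype ranges overlapped. The differences were 0.13 in Act88FKM88 (limma adjusted p = 0.569) and 0.04 in Mhc7 (limma adjusted p = 0.907).

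On the matrix side, Roe1 is the GrpE-type nucleotide exchange factor of the import motor's Hsp70. It had 7.44, 7.73 and 7.41 in Act88FKM88, 7.81, 7.83 and 8.11 in Mhc7, and 7.31, 6.55 and 7.37 in Canton-S. The genotypes did not overlap, although Act88FKM88 replicate 3 exceeded Canton-S replicate 3 only narrowly, and Canton-S replicate 2 was far below the other arrays. The difference was 0.45 in Act88FKM88 (SE 0.21, limma adjusted p = 0.375) and 0.84 in Mhc7 (SE 0.21, 95% interval 0.37 to 1.31, limma adjusted p = 0.0566), where it met the p limit at 1.79-fold and missed the 2-fold minimum. After quantile normalization the Mhc7 difference was 0.24 (limma adjusted p = 0.657).

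The gene blp encodes the fly Magmas or Pam16 protein, which regulates the motor at the translocase. It had 6.72, 7.05 and 6.64 in Act88FKM88, 6.94, 7.50 and 6.89 in Mhc7, and 6.66, 6.77 and 6.89 in Canton-S. The ranges overlapped apart from a single high Mhc7 array, replicate 2. The differences were 0.03 in Act88FKM88 (SE 0.17, 95% interval -0.36 to 0.42, limma adjusted p = 0.962) and 0.33 in Mhc7 (SE 0.17, 95% interval -0.06 to 0.72, limma adjusted p = 0.388).

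**Figure D1:**
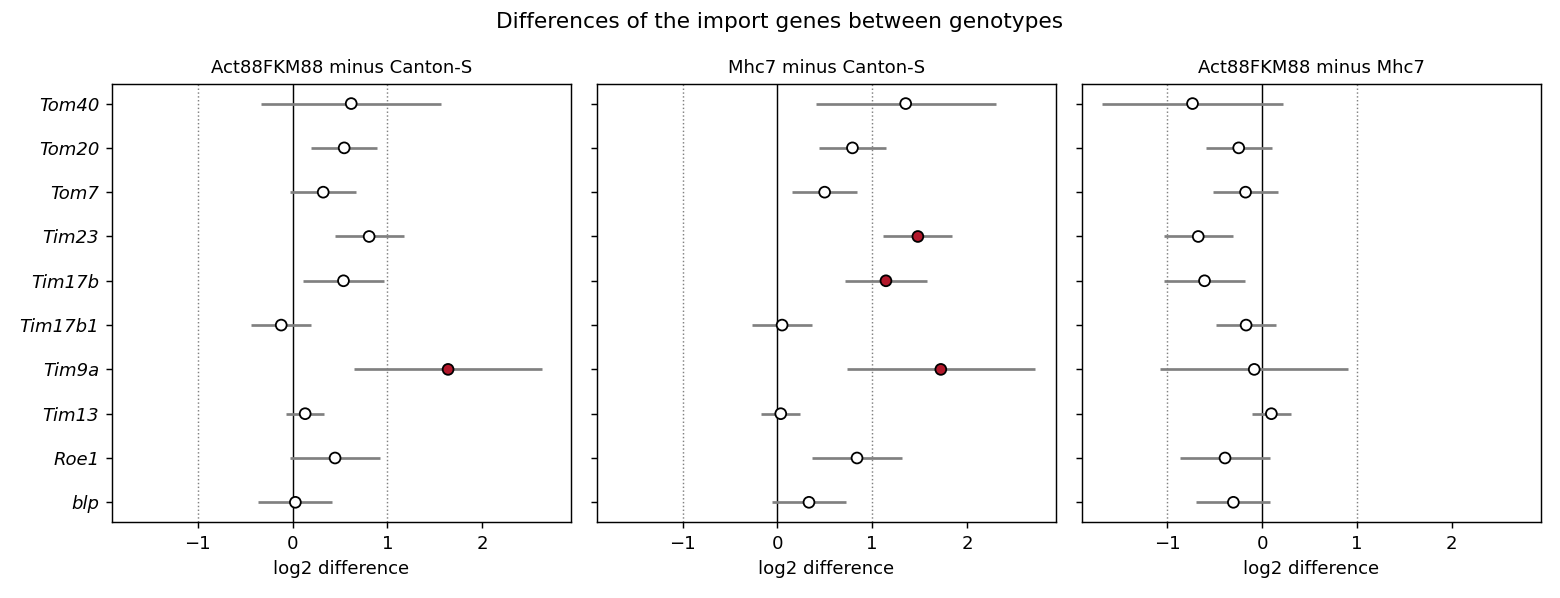
Log2 differences (x axis) of the 10 import genes between each mutant and Canton-S and, in the right panel, between Act88FKM88 and Mhc7, with 95% intervals of the limma contrast. Filled points passed adjusted p under 0.1 and 2-fold, and dotted lines mark 2-fold. Calls are Tim9a in Act88FKM88 and Tim23, Tim17b and Tim9a in Mhc7.

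In Act88FKM88, 1 of the 10 genes rose, against 1.48% of all probe sets and 7.76% of those with a mean of at least 5. The median difference of the 10 was 0.49, and that of the 8 with a mean of at least 5 was 0.54. In 4 of the 10 every Act88FKM88 array was above every Canton-S array, against 9.75% of all probe sets and 35.9% of those with a mean of at least 5. The gene that rose and these 4 were all among the 8 with a mean of at least 5.

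In Mhc7, 3 of the 10 rose, against 2.40% of all probe sets and 16.0% of those with a mean of at least 5. The median of the 10 was 0.82, and that of the 8 was 0.99. In 7 of the 10 every Mhc7 array was above every Canton-S array, against 11.8% of all probe sets and 48.6% of those with a mean of at least 5. The 3 genes that rose and these 7 were all among the 8 with a mean of at least 5.

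Between the mutants, 0 of the 10 were called, against 1.03% of all probe sets that were lower in Act88FKM88 and 6.72% of those with a mean of at least 5; at an unadjusted limma p under 0.05 the count was 2, and SAM also called 0. In 3 of the 10, Tim23, Tim17b and Roe1, every Act88FKM88 array was below every Mhc7 array, against 10.1% of all probe sets and 23.9% of those with a mean of at least 5. These 3 were among the 8 genes with a mean of at least 5. The median difference of the 8 genes was -0.35, beside -0.12 over all probe sets with a mean of at least 5. The widest interval belonged to Tim9a, from -1.08 to 0.91, so the size of any difference between the mutants is poorly bounded there.

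Over the 9 arrays, the mean of the 8 genes with a mean of at least 5 was 8.77, 9.15 and 8.57 in Act88FKM88, 8.88, 9.46 and 9.35 in Mhc7, and 8.06, 8.12 and 8.45 in Canton-S. Act88FKM88 replicate 2, Mhc7 replicate 2 and Mhc7 replicate 3 were the 3 highest arrays, and they also had 3 of the highest 95th percentiles, at 7.96, 8.15 and 8.05. As a description, Pearson's r of each gene with the mean of the other 7 over the 9 arrays was 0.96 for Tom20, 0.93 for Tim17b, 0.92 for Tim23, 0.89 for Tim9a, 0.87 for Tom40, 0.85 for Tom7, 0.80 for Roe1 and 0.70 for blp. These arrays share the genotype differences and the array-wide shift of bright probe sets, which enter every r. After subtracting genotype means, r was 0.92 for Tim9a, 0.84 for Tom20, 0.77 for Tom40, 0.73 for Tim17b, 0.68 for blp, 0.68 for Tim23, 0.57 for Tom7 and 0.34 for Roe1. For Tim13 and Tim17b1, set against the mean of the 8, r was 0.048 and -0.27 over the arrays as deposited. After subtracting genotype means it was -0.38 and -0.77. Shifts shared by all probe sets of an array remain after that subtraction, and their part in these r values was not tested.

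The genes varied unequally within a genotype. In Mhc7 the SD of 3 arrays was 0.90 for Tom40 and 0.87 for Tim9a, against 0.12 for Tim23 and 0.02 for Tom7. For both Tom40 and Tim9a, Mhc7 replicate 1 was the low array. In Canton-S the lowest array was replicate 1 for 4 of the 8 genes with a mean of at least 5 and replicate 2 for 3 of them, measured over all 9 arrays.

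Outside the 10 genes, the probe sets most like the mean of all 10 over the 9 arrays by Pearson's r were those of Pfdn4 (0.99), tsr (0.99), mRpL24 (0.99), Sap-r (0.98) and mRpL14 (0.98). Of the 19 genes flanking the 10 in the RefSeq gene order (Release 6 plus ISO1 MT), 18 were measured, 5 of them with a mean of at least 5, and 0 passed in either mutant. The shares called higher were 1.48% of all probe sets in Act88FKM88 and 2.40% in Mhc7. Among those with a mean of at least 5 they were 7.76% and 16.0%. With so few genes, a count of 0 does not set the flanking genes apart.

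**Figure D2:**
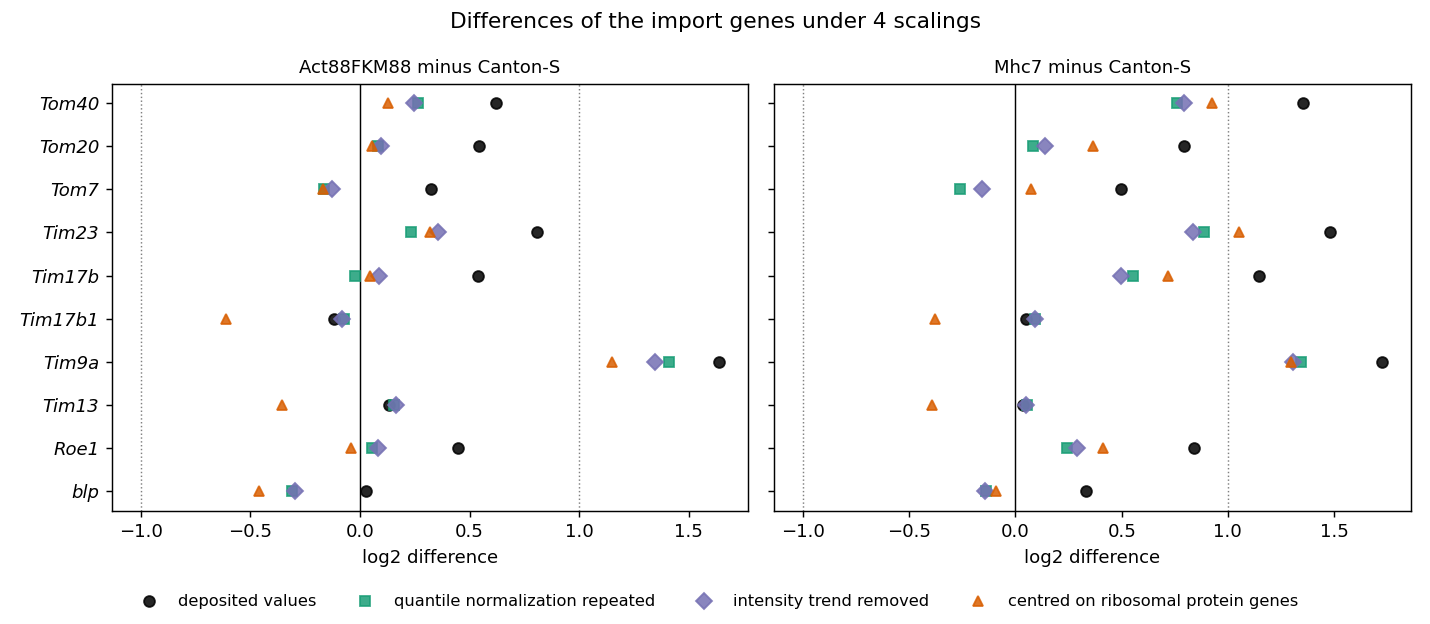
Log2 differences (x axis) of the 10 import genes from Canton-S in Act88FKM88 and Mhc7, under the deposited values and 3 other scalings; dotted lines mark 2-fold. Tim9a stayed past 2-fold in both mutants, while the Mhc7 difference of Tim23 was 0.89 and that of Tim17b 0.55 after quantile normalization, and the Act88FKM88 differences of Tom7, Tim17b and blp were below 0 under it.

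The other scalings lowered most of these differences. The median of the 8 genes in Act88FKM88 was 0.54 as deposited, 0.07 after quantile normalization, 0.09 after removal of the intensity trend and 0.05 after centring on ribosomal protein genes. In Mhc7 it was 0.99, 0.40, 0.39 and 0.57 in the same order. Centring moved the median of all probe sets by -0.49 in Act88FKM88 and -0.43 in Mhc7, so values on that scale are relative to that shift. The share of calls that were higher was 81.8% as deposited and 51.0% after quantile normalization in Act88FKM88, and 86.1% and 54.1% in Mhc7.

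The rest of the import pathway was read from a list of 31 further entries, of which 26 were measured by a probe set naming 1 gene. In Act88FKM88 2 of the 26 rose, CG31229 and CG11110, with a median difference of 0.00 over the 26. In Mhc7 11 rose, with a median of 0.84, and none fell, beside 73 of all 18769 probe sets called lower there. Of the 26, 15 had a mean of at least 5, and 10 of those 15 rose in Mhc7. Higher calls took 2.40% of all probe sets and 16.0% of those with a mean of at least 5 in Mhc7, and 1.48% and 7.76% in Act88FKM88. After quantile normalization 4 of the 11 Mhc7 calls were kept, those of CG31229, CG8728, CG11110 and CG4942. Removal of the intensity trend kept those of the same genes and of CG8004, which makes 5.

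Several of these genes act directly with the 10. Tim8, a small Tim that pairs with Tim13, had 9.02, 9.49 and 8.84 in Act88FKM88, 9.86, 10.28 and 10.05 in Mhc7, and 8.37, 8.35 and 8.84 in Canton-S. All Mhc7 arrays were above all others. Tim8 rose by 1.54 in Mhc7 (SE 0.20, limma adjusted p = 0.0027), while the Act88FKM88 difference was 0.59 (limma adjusted p = 0.184). The Mhc7 difference was 0.84 after quantile normalization and 0.91 after removal of the intensity trend, under 2-fold in both.

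Hsc70-5, the mitochondrial Hsp70 that Roe1 serves, had 9.65, 10.06 and 9.61 in Act88FKM88, 10.23, 10.68 and 10.61 in Mhc7, and 9.37, 9.25 and 9.57 in Canton-S. The 3 genotypes did not overlap. Hsc70-5 rose by 1.11 in Mhc7 (SE 0.16, limma adjusted p = 0.0043) and differed by 0.38 in Act88FKM88 (limma adjusted p = 0.319). The Mhc7 difference was 0.36 after quantile normalization (limma adjusted p = 0.227) and 0.46 after removal of the intensity trend, and was not called under either.

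Mge, the fly Tom22 and central receptor of the TOM complex, differed by 0.59 in Act88FKM88 (limma adjusted p = 0.272) and by 0.84 in Mhc7 (SE 0.23, limma adjusted p = 0.0818), where all Mhc7 arrays were above Canton-S but the difference was under 2-fold. CG7394, listed as TIM14 and a motor cochaperone that in yeast pairs with the counterpart of blp's product, differed by -0.03 in Act88FKM88 and by 0.67 in Mhc7 (SE 0.14, limma adjusted p = 0.0267), under 2-fold. CG9240 differed by 0.91 in Act88FKM88 (SE 0.15, limma adjusted p = 0.0138) and by 0.96 in Mhc7 (SE 0.15, limma adjusted p = 0.0064). Both were under 2-fold, with every array of either mutant above every Canton-S array.

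Further genes whose products act on proteins during or after import rose in Mhc7. CG8728, listed as alpha-MPP, a subunit of the protease that cuts off targeting sequences, rose by 1.66 (SE 0.22, limma adjusted p = 0.0032), and CG7791, listed as MIP, an intermediate peptidase, rose by 1.08 (SE 0.29, limma adjusted p = 0.0810). OXA1L, which inserts proteins into the inner membrane from the matrix side, rose by 1.55 (SE 0.22, limma adjusted p = 0.0045). Alr, listed as dErv1, the oxidase of the disulfide relay that traps small Tims, rose by 1.26 (SE 0.34, limma adjusted p = 0.0815).

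These calls were not equally firm. When 1 array was left out, the calls of CG8728 and OXA1L remained in 9 of 9 fits, that of CG7791 in 5 and that of Alr in 4, with limma adjusted p up to 0.230 for Alr. After quantile normalization CG8728 was still called, at 1.03, while OXA1L at 0.89, CG7791 at 0.77 and Alr at 0.74 were not.

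In Act88FKM88 none of CG8728, CG7791, OXA1L and Alr was called, at -0.19 for CG8728, -0.18 for CG7791, 0.49 for OXA1L and 0.43 for Alr. CG4942, CG31229, CG8004, CG11110 and CG9393 also rose in Mhc7, by 1.71, 1.58, 1.51, 1.49 and 1.00. With 1 array left out, the Mhc7 calls of CG4942, CG8004 and CG11110 remained in 9 of 9 fits. That of CG31229 remained in 7 and that of CG9393 in 5, with limma adjusted p up to 0.1425 for CG9393. In Act88FKM88 CG31229 rose by 1.36 (SE 0.35, limma adjusted p = 0.0846), and CG11110 by 1.23 (SE 0.15, limma adjusted p = 0.0039). The Act88FKM88 call of CG31229 remained in 4 of 9 fits that left out 1 array, with limma adjusted p up to 0.237. That of CG11110 remained in 9 of 9. Both calls were kept after quantile normalization and both were lost after centring, at 0.87 for CG31229 and 0.74 for CG11110, and after removal of the intensity trend, at 1.02 (limma adjusted p = 0.110) and 0.96.

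Between the mutants 6 of the 26 were lower in Act88FKM88 than in Mhc7, with a median over the 26 of -0.30. Lower calls took 1.03% of all probe sets and 6.72% of those with a mean of at least 5. CG8728 had 6.59, 7.14 and 6.64 in Act88FKM88, against 8.24, 8.84 and 8.84 in Mhc7, and the 2 ranges were far apart. It was lower by 1.85 (SE 0.22, limma adjusted p = 0.0045). CG4942 was lower by 1.75, CG11779 by 1.31, CG7791 by 1.26, ttm50 by 1.09 and OXA1L by 1.06. Relative to Canton-S none of these 6 was called in Act88FKM88 on the deposited values. Those differences were -0.19 for CG8728, -0.04 for CG4942, -0.66 for CG11779, -0.18 for CG7791, -0.26 for ttm50 and 0.49 for OXA1L. The calls of ttm50 and OXA1L were lost after quantile normalization and after removal of the intensity trend.

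**Figure D3:**
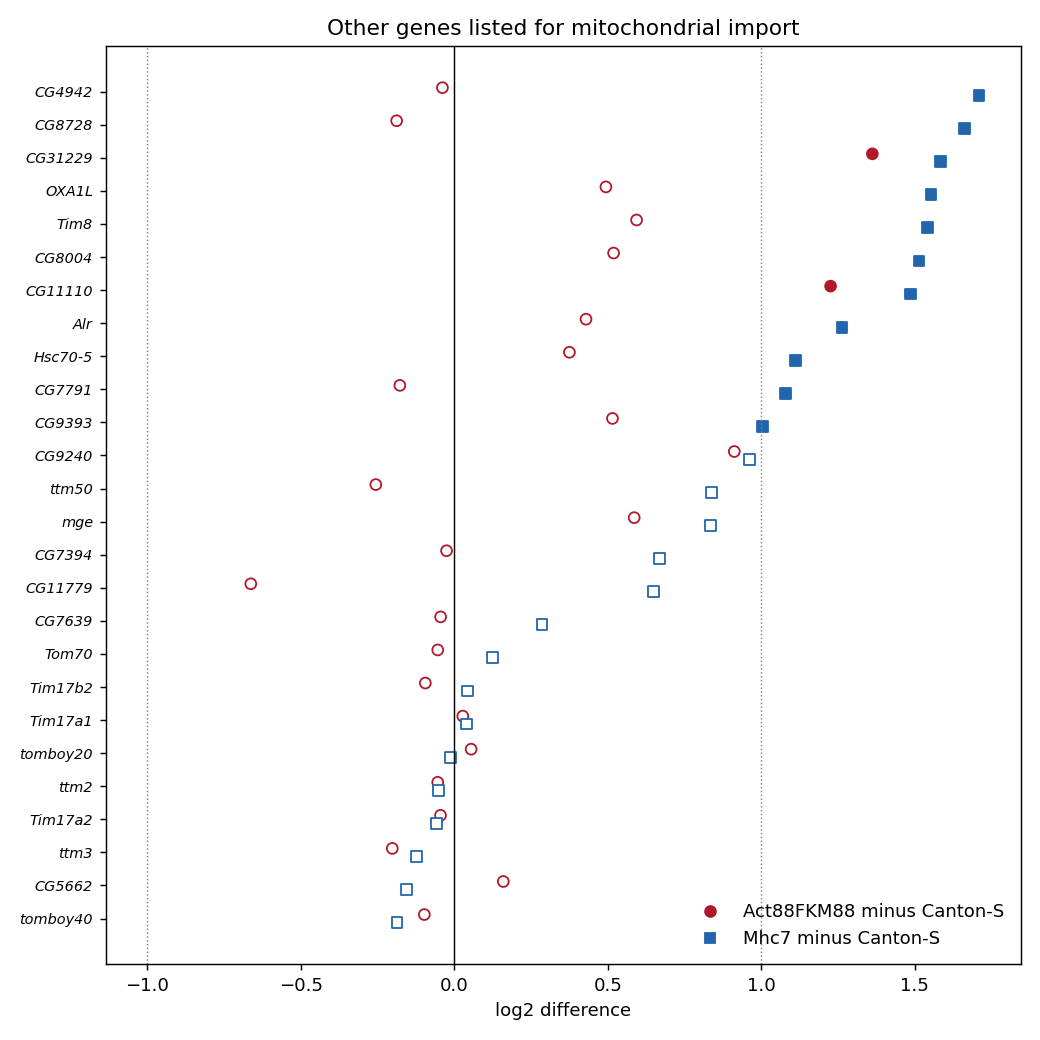
Log2 differences (x axis) from Canton-S of 26 other genes listed for mitochondrial import, in order of their Mhc7 difference; filled symbols passed adjusted p under 0.1 and 2-fold, and dotted lines mark 2-fold. The Mhc7 calls run from 1.00 for CG9393 to 1.71 for CG4942, and the Act88FKM88 calls are CG31229 and CG11110.

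The remaining 11 of the 26 had a mean below 5. For 9 of them, among which are Tom70, tomboy20, tomboy40, Tim17a1, Tim17a2 and Tim17b2, every value was below 4 on all 9 arrays. The other 2 were CG7639, which reached 5.17, and CG4942, whose Mhc7 values reached 5.83.

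Other mitochondrial lists gave a context for these counts. Higher calls took 1.48% of all probe sets and 7.76% of those with a mean of at least 5 in Act88FKM88, and 2.40% and 16.0% in Mhc7. The median difference of probe sets with a mean of at least 5 was 0.32 in Act88FKM88 and 0.42 in Mhc7. Of 69 mitochondrial ribosomal protein genes 7 rose in Act88FKM88 and 50 in Mhc7, with medians of 0.43 and 1.42. Of 60 oxidative phosphorylation subunits 1 rose in each mutant, UQCR-11, a subunit of complex III, by 1.21 in Act88FKM88 and 1.10 in Mhc7, with medians of 0.18 and 0.29 over the list. Of 13 mitochondrial chaperones and proteases 0 rose and Trap1, the mitochondrial Hsp90, fell by 1.61 in Act88FKM88, while 4 rose in Mhc7.

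Among those 4 the largest differences were those of CG11267 (1.74) and Afg3l2, a protease of the inner membrane (1.68). Of 10 carriers 0 rose in Act88FKM88 and 2 in Mhc7, Mpcp2, the phosphate carrier, by 1.03 and colt, the acylcarnitine carrier, by 1.02. Of 26 proteasome subunits, the list outside mitochondria set beside these, 13 rose in Act88FKM88 and 26 in Mhc7, with medians of 1.03 and 1.69. None of 7 genes of mitochondrial dynamics and quality control was called in either mutant. Among all probe sets with a mean of at least 5, 7.76% were called higher in Act88FKM88 and 16.0% in Mhc7. These lists were not counted under the other scalings.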

How the data were processed

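Total RNA from dissected indirect flight muscle was hybridised to 9 Affymetrix Drosophila Genome 2.0 arrays, 3 per genotype. The authors deposited log2 values made by RMA, per the design text and the submitters' processing notes; the RMA version, and whether all arrays were normalized together, are not given in the sources used here. Of 18952 probe sets, 183 controls were left out. All other probe sets, 18769, entered the tests whatever their level; 13647 carry a single gene symbol in GEO's platform annotation, 402 carry several and 4720 have none.

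Genotype means were estimated jointly from the 9 arrays by limma 3.58.1 (lmFit, eBayes; R 4.3.3), and p-values, two-sided, were adjusted by Benjamini-Hochberg over all probe sets. The probe set with the highest mean stood for a gene. In simulated Mhc7 minus Canton-S data the fit called 82% of 3-fold and 92% of 6-fold changes among 200 changed probe sets of 18769, with 0 false calls. SAM called 92% and 97%, with 20 false calls. All changed probe sets had a mean of at least 5, and the noise was drawn independently for each value. The simulation held no shift of bright probe sets between genotypes, so its false calls do not cover the shift seen in the deposited values. The number of arrays limits the precision. Alternatives were SAM, other thresholds and scalings, array weights, a replicate block and leaving out each array; removal of the intensity trend was added after seeing the data.

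Named genes were all 10 members, Act88F, every other import gene that passed, up to 2 genes per direction of each other mitochondrial list, and the 5 genes most like the members' mean. Also named were mge, CG7394 and CG9240, which met the p limit in Mhc7 but not the 2-fold minimum. Several import genes with a mean below 5 and the marker genes Cpr64Aa, Cpr76Bd and Hml were named as well. The members and lists were chosen with earlier results of these data known. Sequences were not used here.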

Additional observations from a re-analysis of the deposited data

Results flagged for a closer look

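For 6 other import genes the 2 mutants' differences from Canton-S were unequal past the threshold in the direct comparison, Act88FKM88 minus Mhc7. The log2 values were -1.85 for CG8728, -1.75 for CG4942, -1.31 for CG11779, -1.26 for CG7791, -1.09 for ttm50 and -1.06 for OXA1L. For CG11779 every Act88FKM88 array was below, and every Mhc7 array above, every Canton-S array, at -0.66 and 0.65. After quantile normalization or removal of the intensity trend, 4 of the 6 remained called and ttm50 and OXA1L did not. When single arrays were left out, CG8728 and CG4942 were called in 9 of 9 fits, CG11779 in 8, CG7791 and OXA1L in 5 each and ttm50 in 4. None of the 10 import genes differed past the threshold between the mutants.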

How the results depend on the processing

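Without the 2-fold minimum, probe sets past the adjusted p limit numbered 953 in Act88FKM88 minus Canton-S, 1334 in Mhc7 minus Canton-S and 740 in Act88FKM88 minus Mhc7; of the 10 import genes 2, 5 and 1 passed, and 10 other import genes between the mutants. At adjusted p under 0.05, 0 import genes and 1 other import gene passed in Act88FKM88. Quantile normalization left 266 probe sets, 1 import gene and 4 other import genes in Mhc7, and removal of the intensity trend 279, 1 and 5. Centring on ribosomal protein genes left 7 other import genes in Mhc7, and gave 531 probe sets between the mutants. Under centring and under removal of the trend, 0 of the 2 other import genes that rose in Act88FKM88 were still called, and 1 other gene, CG11779, was called lower there, at -1.15 and -1.05; quantile normalization kept both and also called CG11779 lower, at -1.10. Leaving out 1 array gave 218 to 390 probe sets, 0 to 1 import genes and 1 to 3 others in Act88FKM88; 396 to 648, 1 to 4 and 7 to 12 in Mhc7; and 192 to 400, 0 to 0 and 2 to 8 between the mutants. The lowest Act88FKM88 probe set count came without Canton-S replicate 1. With the replicate number as a block 345, 532 and 340 probe sets passed, with 1, 3 and 0 import genes, and 1 other import gene in Act88FKM88, CG11110 and not CG31229 (adjusted p = 0.133 in limma). The numbers were not taken to pair the arrays: same-number correlations of deviations ran from -0.32 to 0.43, with 3 of 9 over 0.1, and 4 of 9 arrays correlated best with their own number. Directions that turned were of uncalled differences. In Act88FKM88 quantile normalization gave -0.16 for Tom7, -0.022 for Tim17b and -0.31 for blp, centring -0.17 for Tom7, -0.36 for Tim13, -0.042 for Roe1 and -0.46 for blp, and trend removal -0.13 for Tom7 and -0.30 for blp. In Mhc7 quantile normalization gave -0.26 for Tom7 and -0.14 for blp, centring -0.38 for Tim17b1, -0.39 for Tim13 and -0.094 for blp, and trend removal -0.16 for Tom7 and -0.14 for blp. Between the mutants quantile normalization gave 0.0040 for Tom20, 0.094 for Tom7 and 0.064 for Tim9a, and trend removal 0.029 for Tom7 and 0.041 for Tim9a. Leaving out 1 array gave -0.094 to 0.11 for blp in Act88FKM88, -0.022 to 0.092 for Tim13 and -0.10 to 0.14 for Tim17b1 in Mhc7, and -0.58 to 0.20 for Tim9a between the mutants. The causes were not tested. Over all alternatives, 572 values of the 10 genes kept direction and call, 19 lost and 8 gained a call, and 28 turned. Many of the 572 could not turn, because SAM, other thresholds and the replicate block leave the difference itself unchanged. The tally also covers differences that were never called, so it does not measure how firm the calls were.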
